A study of Papio papio with 23 samples.

Results

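The 78 genes described here encode the proteins of the cytosolic ribosome, measured in whole blood of baboons before and after gamma irradiation. They are the genes that the array design names RPL or RPS with a number, RPLP0, RPLP1, RPLP2 or RPSA, without RPS27L, and each has at least 1 probe well above background on at least 4 of 23 arrays. That keeps 78 of 80 such names and 78 of the 21130 genes tested, 47 for the large and 31 for the small subunit. RPL27A and RPL39L did not reach the detection minimum. All 78 genes were well above background on all 23 arrays, so none entered through a single group. A gene is represented by its brightest probe, and its level is log2 signal minus the array's 75th percentile of log2 signal. A difference of 1 on this scale is 1 doubling.

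Blood was taken from adult male Papio papio baboons with an average age of 8.1 ± 3.3 years. They were exposed to 60Co gamma rays of the whole or part of the body, at an equivalent whole-body dose of 2.5 or 5 Gy, and the labels of the arrays do not give the dose or field for each animal. Groups are the category of haematological acute radiation syndrome that the animals later developed. H0 is blood from 5 baboons before irradiation, H1-2 holds 4 baboons with the milder category and H2-3 holds 5 with the more severe one, each sampled on day 1 and on day 2 after exposure. The labels do not say whether the H0 baboons are among the irradiated animals. A category therefore stands for an outcome and not for a known dose. Whole blood mixes leukocytes, reticulocytes and platelets, and in such samples fewer cells of a type and less RNA per cell cannot be told apart.

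The ribosome has a small subunit that reads the mRNA and a large subunit that joins amino acids, each built on ribosomal RNA with one copy of nearly every ribosomal protein. Most ribosomal protein mRNAs begin with a terminal oligopyrimidine tract (5′ TOP) through which the kinase mTOR couples their translation to growth signals. Lymphocytes and dividing cells carry much of this mRNA, while mature neutrophils make few new ribosomes. Ribosomal proteins left without a ribosome, RPL5 and RPL11 above all, bind MDM2 and thereby stabilise p53, which links ribosome assembly to the response to stress.

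The values come from 60-base human probes hybridised with baboon RNA, so the sequence of each probe bears on what it measured. The probes of RPL13A, RPL3, RPS19 and RPL3L are shown because the changes described below turn on them. All positions are hg19 as the array design gives them, without exon or UTR annotation. RPL13A lies at chr19:49994724-49994783 on the plus strand, RPL3 at chr22:39709699-39710135 on the minus strand, RPS19 at chr19:42365231-42373109 on the plus strand and RPL3L at chr16:1995598-1995873 on the minus strand. The last 3 positions span more than the probe's own 60 bases, as do those of 31 of the 78 probes used, so these probes join separate stretches of the genome.
RPL13A: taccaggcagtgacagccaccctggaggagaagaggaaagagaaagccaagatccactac
RPL3: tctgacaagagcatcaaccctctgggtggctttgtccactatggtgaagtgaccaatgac
RPS19: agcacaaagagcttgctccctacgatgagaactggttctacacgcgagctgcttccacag
RPL3L: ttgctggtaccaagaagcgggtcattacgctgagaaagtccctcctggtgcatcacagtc

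Ribosomal protein genes have near copies, and the next probe pairs show how far the array can separate them. RPL10, a large-subunit protein that joins late in assembly, has the retrogene RPL10L, which is active in testis. Their probes (RPL10 at chrX:153628866-153628925, plus strand; RPL10L at chr14:47120514-47120573, minus strand) overlap by 36 bases, of which 33 are identical, and capitals mark the bases that differ.
RPL10: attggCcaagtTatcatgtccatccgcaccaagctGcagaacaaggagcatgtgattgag
RPL10L: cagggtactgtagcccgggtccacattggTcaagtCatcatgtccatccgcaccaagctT
The probes of RPS27 (chr1:153964053-153964112, plus strand) and of its paralog RPS27L (chr15:63447866-63447925, minus strand), which lies outside the rule, overlap by 54 bases with 42 identical, and capitals again mark the differences.
RPS27: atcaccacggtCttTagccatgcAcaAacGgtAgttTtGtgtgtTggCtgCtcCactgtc
RPS27L: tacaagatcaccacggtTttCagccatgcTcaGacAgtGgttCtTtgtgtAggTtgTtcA
The probes of RPL36A and of RPL36AL (chr14:50085523-50085582, minus strand) share the 24 bases in capitals exactly.
RPL36AL: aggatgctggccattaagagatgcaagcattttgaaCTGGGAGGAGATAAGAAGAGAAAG

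Between 41.4% and 51.3% of probes were well above background on an array, and no probe was saturated. The arrays came from 7 slides scanned on 3 days, numbered here in order. Every day 2 array was scanned on scan day 3, which holds no H0 array, so day 2 and scan day cannot be told apart. On scan day 2, 3 of the 5 H0 arrays were scanned beside all day 1 arrays. Slides 1 and 2 held only H0 arrays, and slides 4 and 5 only day 1 arrays. No H1-2 day 1 array shared a slide with an H0 array. In H2-3 only baboon 1 did so, on slide 3 beside H0 baboon 5. Day 1 and slide can therefore hardly be told apart. With slide as a fixed block, 52 of 78 members in H1-2 and 46 in H2-3 were below H0 on day 1. That fit reaches H0 only through the pair on slide 3, and its H2-3 changes are those of this pair alone. In the pair 39.6% of all genes were below 0.

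On day 1 after irradiation nearly all ribosomal protein genes were lower than in the unirradiated blood, in both categories and by similar amounts. In H1-2 the fitted change was below 0 for 77 of 78 genes, against 43.4% of all genes tested, and the median change was -0.56, a 1.47-fold lower signal. In H2-3 it was below 0 for 72 of 78, against 40.6% of all genes, with a median of -0.48. The medians over all genes were 0.09 and 0.14, so on this scaling the shift of the ribosomal genes ran against that of the array as a whole. Scaled on probes well above background on every array, the medians over all genes were -0.03 and -0.05. With that scaling 78 and 76 of 78 members were below 0. Large- and small-subunit genes moved alike, with medians of -0.56 and -0.56 in H1-2 and of -0.46 and -0.52 in H2-3. These comparisons share the 5 H0 arrays.

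**Figure D1:**
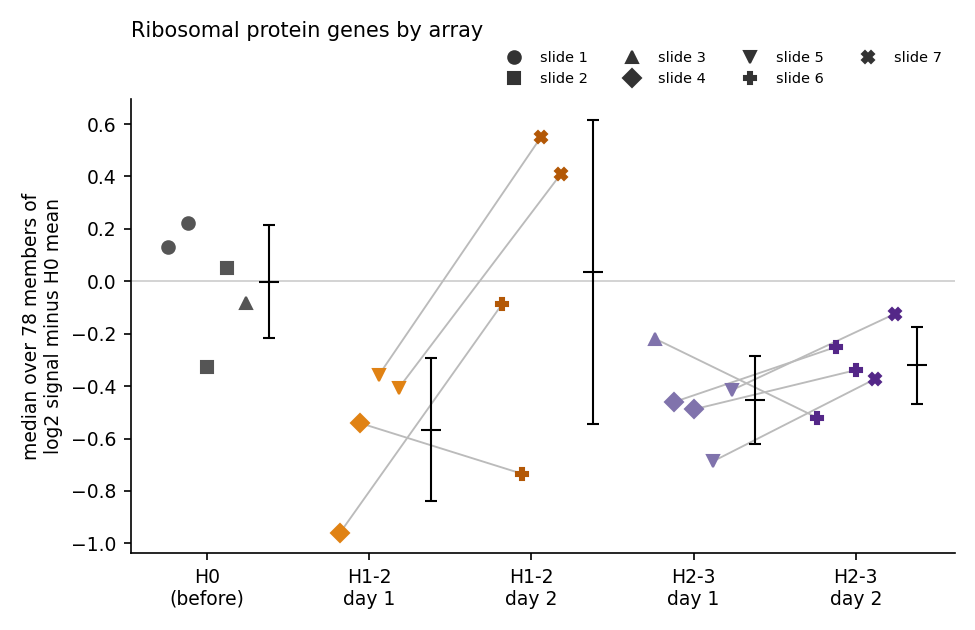
Median over the 78 ribosomal protein genes of the log2 signal minus the H0 mean (vertical axis), 1 symbol per array, with the shape giving the slide and grey lines joining the samples of 1 baboon. Black bars are the group mean ± SD; every day 1 array lies below 0, and the H1-2 day 2 arrays spread from -0.73 to 0.55.

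The median over the 78 genes was taken on each array relative to the H0 mean. The 5 H0 arrays gave 0.13, 0.22, -0.33, 0.05 and -0.08. The 4 H1-2 day 1 arrays gave -0.96, -0.54, -0.36 and -0.41, and the 5 H2-3 day 1 arrays gave -0.22, -0.46, -0.49, -0.69 and -0.41. The H1-2 day 1 arrays all lay below every H0 array, while H2-3 baboon 1 lay above H0 baboon 3. H0 baboon 3 had the lowest member median of its group, and also the lowest T cell marker median (-0.60) and the highest neutrophil marker median (1.39) of the H0 arrays.

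After adjustment over all genes, 6 members were called lower in H1-2 on day 1 (7.69% of the members, against 4.42% of all genes) and 0 higher (4.18% of all genes), by limma with Benjamini-Hochberg adjusted p under 0.05. In H2-3, 17 were called lower (21.8%, against 13.5% of all genes) and 0 higher (15% of all genes). At an unadjusted p under 0.05, 44 of 78 were lower in H1-2 (13.2% of all genes were) and 35 of 78 in H2-3 (17.2%). The 3 members RPL13A, RPL27 and RPL41 were called in both. All arrays lay below all H0 arrays for 31 of 78 members in H1-2, against 5.4% of all genes, and for 9 of 78 in H2-3, against 9.27%, which is near the background.

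**Figure D2:**
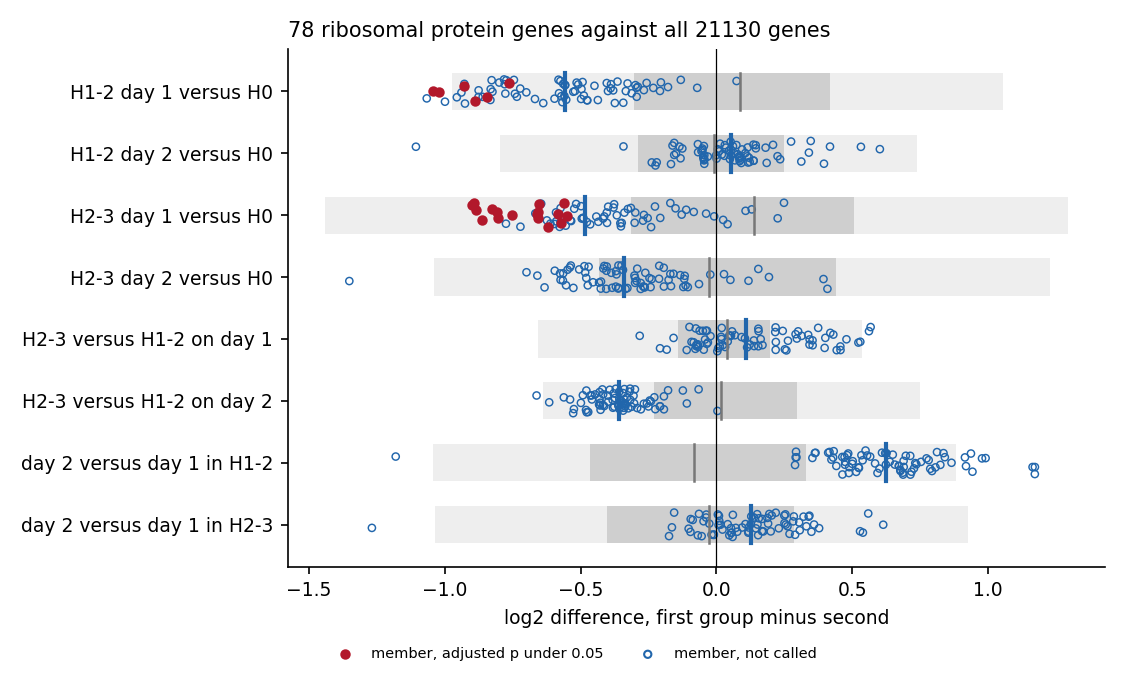
Log2 difference between groups (horizontal axis) for each of the 78 ribosomal protein genes in the 8 comparisons; red points have an adjusted p under 0.05, open points do not, and the blue bar is their median. Grey bands hold the central 50% and 90% of all 21130 genes with their median as a grey line; the blue bar lies left of the grey line in both day 1 comparisons with H0 and right of it in the day comparison within H1-2.

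RPL13A, a large-subunit protein that also takes part in silencing of inflammatory mRNAs, had the smallest p in both day 1 comparisons. Its level was 8.04, 8.13, 7.64, 8.30 and 8.07 in H0, then 6.96, 7.34, 7.46 and 7.33 in H1-2 on day 1 and 7.54, 7.36, 7.05, 6.84 and 7.34 in H2-3 on day 1. All 9 irradiated arrays were below the lowest H0 array. The change was -0.76 ± 0.21 (SE) in H1-2 (1.70-fold lower, adjusted p = 0.0327) and -0.81 ± 0.20 in H2-3 (1.75-fold lower, adjusted p = 0.00476). The other 2 probes of the gene gave -0.78 and -0.73 in H1-2 and -0.82 and -0.76 in H2-3.

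RPL3, which lies close to the peptidyl transferase centre, was 7.88, 7.94, 7.09, 8.26 and 7.49 in H0 and 6.70, 6.66, 6.77, 6.79 and 7.26 in H2-3 on day 1. The last of these arrays overlapped H0 baboon 3 and the rest did not. RPL3 fell by 0.89 ± 0.26 (adjusted p = 0.0134) in H2-3 and was 0.82 ± 0.28 lower without passing the test in H1-2 (adjusted p = 0.0623), where baboon 3, at 7.52, lay within the H0 range. RPL14 was 9.31, 8.96, 8.59, 9.15 and 9.04 in H0 against 8.20, 8.15, 8.24, 7.85 and 8.18 in H2-3 on day 1, with no overlap (-0.89 ± 0.24, adjusted p = 0.00824). RPL35, at the exit of the peptide tunnel, changed by -0.90 ± 0.26 (adjusted p = 0.0138) and RPL10A, the protein of the mobile L1 stalk, by -0.80 ± 0.25 (adjusted p = 0.0214). The other members called in H2-3 included RPL27, RPL41, RPS2, RPL13, RPL18, RPL23A, RPL19, RPL7A, RPL35A, RPL36 and RPSA, with changes between -0.55 and -0.86. By subunit these were 14 large-subunit and 3 small-subunit genes of the 17.

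RPL41, a very short and basic protein at the junction of the subunits, had the deepest fall among the members called in H1-2. It was 6.96, 6.98, 6.33, 6.59 and 6.44 in H0, and 5.45, 5.82, 5.69 and 5.50 in H1-2 on day 1, well apart (-1.05 ± 0.31, 2.06-fold lower, adjusted p = 0.0416). In H2-3 the same gene was 6.77, 5.94, 5.59, 5.26 and 5.60, where baboon 1 stayed among the H0 values. With slide as a fixed block the change of RPL41 was 0.35 in H1-2 and 0.33 in H2-3. That fit reaches H0 only through slide 3, which held H0 baboon 5 (6.44) and H2-3 baboon 1 (6.77). The turn in sign therefore rests on this pair of arrays. RPS20 changed by -1.02 ± 0.30 (adjusted p = 0.0401), RPS25, a protein of the small-subunit head, by -0.93 ± 0.27 (adjusted p = 0.0385), RPL37 by -0.89 ± 0.27 (adjusted p = 0.0450) and RPL27 by -0.85 ± 0.26 (adjusted p = 0.0473) in H1-2. For RPL37 the second, dimmer probe gave -0.31, so its 2 probes differ in size.

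The calls on day 1 depended on which arrays, scaling and batch terms entered. On the normalized values that the authors deposited, 43 members were called lower in H1-2, where 6.58% of all genes were called lower and 3.48% higher, and 53 in H2-3, where it was 16% and 12.3%. The member medians there were -0.75 and -0.78. Within scan day 2 the medians were -0.46 in H1-2 (76 of 78 below 0) and -0.32 in H2-3 (69 of 78 below 0), and a fit with scan day as a term called 0 and 2 members lower (0.00473% and 11.2% of all genes). On the single slide that held an H0 and an H2-3 day 1 array the median was -0.13, with 46 of 78 below 0. There 39.6% of all genes were below 0 and their median was 0.22. A fixed slide block gives these same H2-3 values, since it reaches H0 only on that slide. Leaving out single arrays gave 0 to 19 calls in H1-2 (0.00947% to 6.89% of all genes) and 4 to 24 in H2-3 (10.9% to 14.3%); the H1-2 calls were lost without any 1 of H0 baboons 1, 2, 4 and 5 or H1-2 baboons 1, 2 and 4, and rose to 19 without H0 baboon 3. In H2-3, 4 to 8 calls were left without any 1 of H0 baboons 1, 2, 4 and 5 or H2-3 baboons 2, 3 and 4. The direction of the median held without each array.

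**Figure D3:**
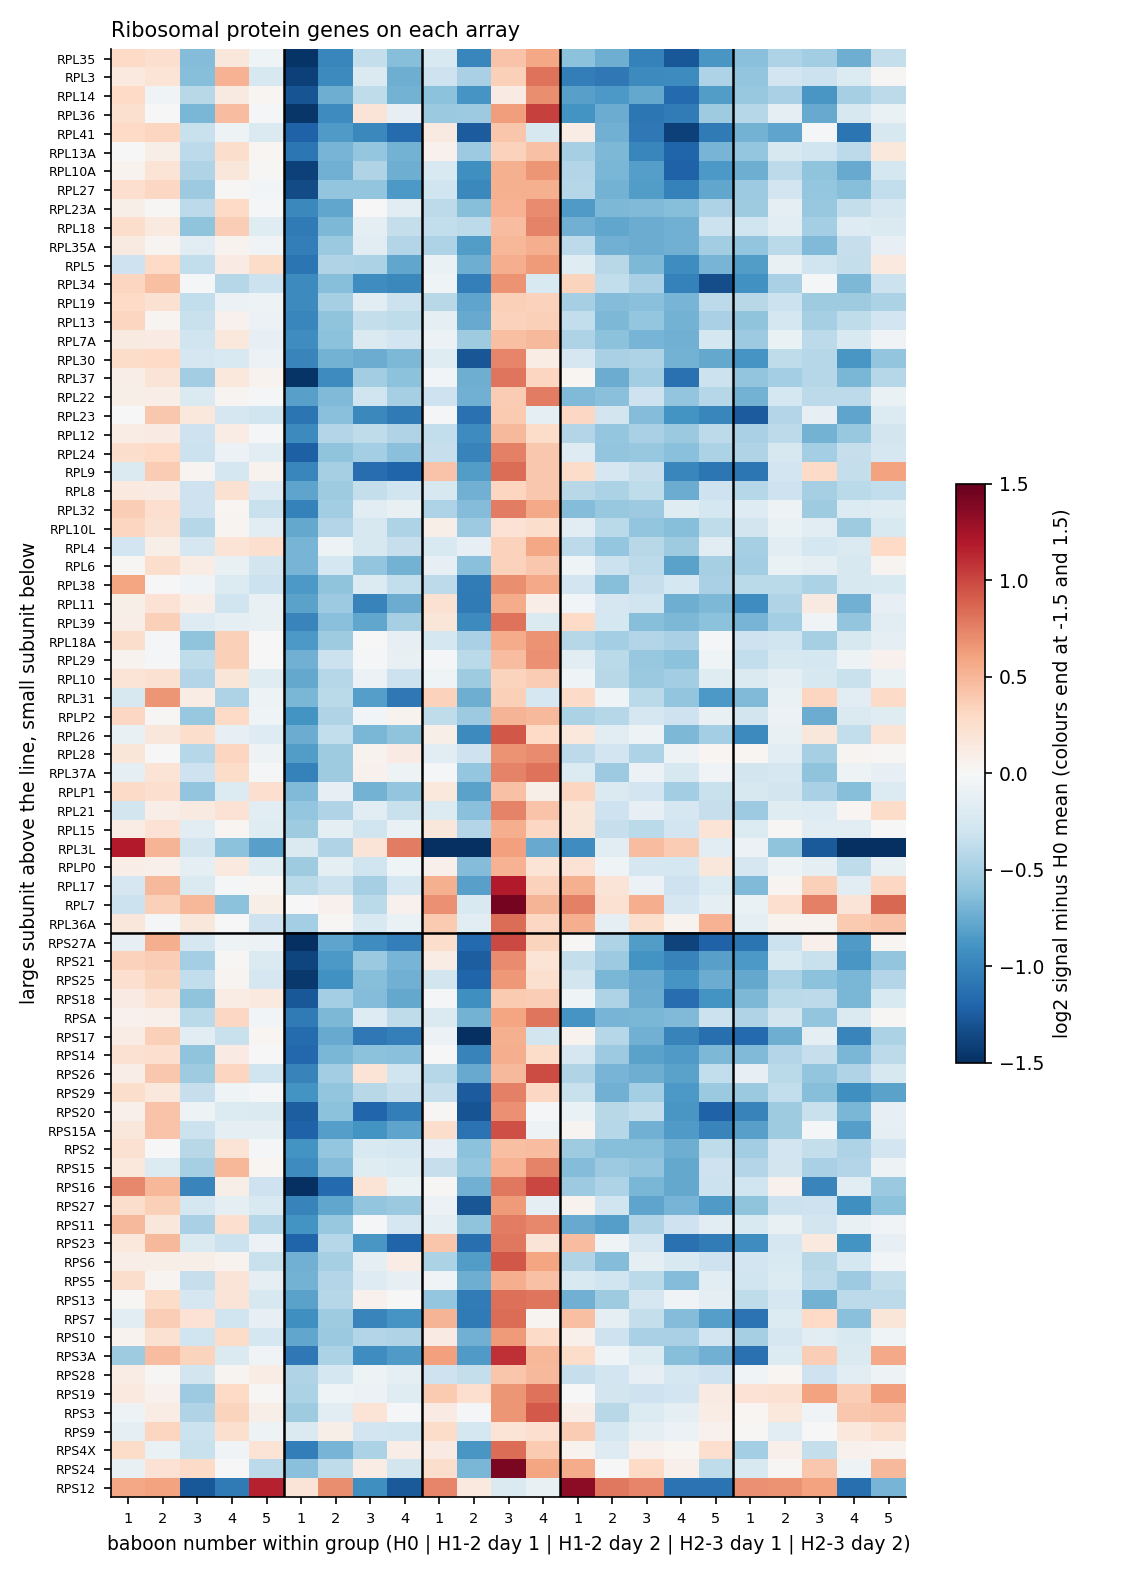
Log2 signal minus the H0 mean for 77 of the 78 genes (rows, large subunit above the line, each block ordered by the H2-3 day 1 change) on each of the 23 arrays (columns, grouped as labelled); blue is lower and red is higher than the H0 mean. H1-2 baboon 1 on day 1 is the bluest column, H1-2 baboons 3 and 4 on day 2 are red across most rows, and the row of RPS12 follows neither pattern.

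The stalk proteins RPLP0, RPLP1 and RPLP2, which recruit the translational GTPases, were -0.26, -0.52 and -0.33 in H1-2 and -0.04, -0.21 and -0.31 in H2-3 (adjusted p from 0.171 to 0.906). RPL5 and RPL11, the 5S RNA partners that bind MDM2, were -0.70 and -0.77 in H1-2 (adjusted p = 0.0934 and 0.0699) and -0.58 and -0.40 in H2-3 (adjusted p = 0.0881 and 0.259). For RPL11 all 4 H1-2 day 1 arrays (6.30, 6.56, 6.10 and 6.35) lay below the 5 H0 arrays (7.20, 7.32, 7.20, 6.81 and 6.99). RPSA, also known as the laminin receptor precursor, was called in H2-3 (-0.65 ± 0.24, adjusted p = 0.0479) and was -0.57 ± 0.26 in H1-2 (adjusted p = 0.154).

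RPS6, the substrate of the S6 kinases, was -0.31 in H1-2 and -0.35 in H2-3 (adjusted p = 0.495 and 0.328). RPS14 and RPS19, whose loss impairs red cell formation in 5q- syndrome and Diamond-Blackfan anaemia, differed from each other: RPS14 was -0.78 and -0.62 (adjusted p = 0.0540 and 0.0515), and RPS19 was -0.20 and -0.15 (adjusted p = 0.516 and 0.565). RPS27A, which is made as a fusion with ubiquitin, had the lowest fitted change of all members in H1-2, -1.07 ± 0.36, but did not pass the test (adjusted p = 0.0625). RPL22, needed for T cell development, was -0.57 and -0.52, RPL26, which binds p53 mRNA, -0.60 and -0.25, and RPL10 -0.40 and -0.35, none of them called. The 3 kept probes of RPL26 ranged from -0.25 to 0.02 in H2-3. One of the 4 RPL10 probes, well above background on 21 of 23 arrays, ran the other way, at 0.60 in H1-2 and 0.79 in H2-3.

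A few members stayed at or above the H0 level on day 1 in H2-3. RPL36A was 0.25 ± 0.19, RPL7 0.23 ± 0.29, RPS12 0.13 ± 0.56, RPS24 0.11 ± 0.28, RPS4X 0.04 ± 0.25 and RPL17 0.03 ± 0.28 (SE; adjusted p from 0.366 to 0.959). RPL36A was 6.62, 6.43, 6.62, 6.44 and 6.14 in H0 and 7.0, 6.30, 6.72, 6.5 and 6.97 in H2-3 on day 1, so the groups overlapped. RPS3, at the mRNA entry channel and also active in DNA repair, was -0.11 ± 0.20 and RPS9 -0.01 ± 0.17. RPL36AL, whose probe shares 24 bases with that of RPL36A, gave 0.27 in H2-3 on day 1 and -0.09 in H1-2, beside 0.25 and -0.21 for RPL36A. Whether one transcript feeds both probes was not tested.

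On day 2 the medians of the categories lay further apart, although the direct comparison described below called no member. In H1-2 the median change from H0 was 0.053 with 28 of 78 genes below 0, and in H2-3 it was -0.34 with 71 of 78 below 0, against 50.9% and 51.8% of all genes. No member was called in either: in H1-2 the test called 0% of all genes lower and 0% higher, and in H2-3 4.48% lower and 10.3% higher. At an unadjusted p under 0.05, 0 members were lower in H1-2 and 12 of 78 in H2-3, against 5.2% and 15.5% of all genes. All H2-3 day 2 arrays lay below all H0 arrays for 6 members, against 2.96% of all genes, and no member did so in H1-2, against 0.899%. The smallest p in H2-3 were those of RPS29 (-0.66 ± 0.26, adjusted p = 0.0806), RPL3L (-1.35 ± 0.54, adjusted p = 0.0849) and RPL30 (-0.63 ± 0.25, adjusted p = 0.0866). On the deposited values 8 members were called lower in H2-3 on day 2 and 0 higher (5.08% and 7.74% of all genes), RPS29 and RPL30 among them. In H1-2 the smallest p were those of RPS19 (0.53 ± 0.19, adjusted p = 0.357), RPL7 (0.60 ± 0.30, adjusted p = 0.486) and RPS3 (0.42 ± 0.22, adjusted p = 0.495).

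The H1-2 animals differed widely from each other on day 2. On the 4 arrays the member median was -0.09, -0.73, 0.55 and 0.41 relative to the H0 mean, an SD of 0.58 against 0.15 in H2-3 on day 2, where the arrays gave -0.52, -0.25, -0.34, -0.37 and -0.12. Baboons 3 and 4 stood above every H0 array and baboon 2 below every H0 array. RPSA split in the same way, with 7.98, 7.48, 8.78 and 8.99 in the H1-2 baboons, while RPL3, with 7.42, 7.24, 8.09 and 8.55, passed the H0 range only in baboon 4. The median of the B cell markers on the same 4 arrays was -2.06, -1.52, 0.63 and 0.61 relative to H0. That of the neutrophil markers was 0.77, 1.32, 0.17 and -0.49, and that of the NK and cytotoxic markers -0.75, -0.65, -1.14 and -1.06. Their part in the spread was not tested. Baboons 3 and 4 were also hybridised on a slide of their own with H2-3 baboons 4 and 5.

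The direct comparison of the categories gave no called member on either day, and 0% of all genes were called. On day 1 the H2-3 level minus the H1-2 level had a median of 0.11 with 23 of 78 below 0, and at an unadjusted p under 0.05 no member was lower (3.58% of all genes) and 2 were higher (2.21%). The smallest p were those of RPL36A (0.46 ± 0.20, adjusted p = 0.796), RPS4X (0.57 ± 0.27, adjusted p = 0.856) and RPS3A (0.56 ± 0.35, adjusted p = 1). On day 2 the median was -0.36 with 77 of 78 below 0, against 48.2% of all genes, and 2.56% of members were lower at an unadjusted p under 0.05, against 3.61% of all genes. RPL37 (-0.62 ± 0.27), RPL10A (-0.56 ± 0.27) and RPS2 (-0.43 ± 0.21) had the smallest p, each with an adjusted p of 0.508. The day 2 difference was not even over slides: the median was 0.053 on slide 6 (3 H2-3 and 2 H1-2 arrays, 24 of 78 below 0) and -0.78 on slide 7 (2 and 2 arrays, 77 of 78 below 0). Over both slides the day 2 median was -0.64 without H1-2 baboon 2, -0.18 without H1-2 baboon 3 and -0.21 without H1-2 baboon 4, and the day 1 median turned to -0.036 without H1-2 baboon 1.

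From day 1 to day 2 the members' values were higher in 3 of 4 H1-2 baboons by similar amounts, and the differences in H2-3 were smaller. In H1-2 the median change between days was 0.63 with 77 of 78 above 0, while 55.1% of all genes were below 0, and in H2-3 it was 0.13 with 18 of 78 below 0, against 52.2%. Taken baboon by baboon, the median of the members changed by 0.84, -0.29, 0.91 and 0.88 in the 4 H1-2 animals and by -0.23, 0.24, 0.16, 0.25 and 0.27 in the 5 H2-3 animals. H1-2 baboon 2 and H2-3 baboon 1 went against their groups, with 14 and 21 of 78 members higher on day 2. The test that treats the days as separate samples called no member in H1-2 (0% of all genes) or in H2-3 (1.74% of all genes higher, 1.23% lower). At an unadjusted p under 0.05, 52 of 78 were higher in H1-2 and 3 in H2-3, against 10.8% of all genes in each.

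With the baboon as a random block, which uses that the same animal was sampled on both days, 4 members were called higher on day 2 in H1-2 (2.19% of all genes) and 2 in H2-3 (6.88%), and 0 lower in either (2.08% and 9.24% of all genes). In H1-2 these were RPS19 (0.74 ± 0.17, adjusted p = 0.0349), RPL13A (0.84 ± 0.20, adjusted p = 0.0355), RPL37 (0.98 ± 0.25, adjusted p = 0.0381) and RPL3 (0.92 ± 0.24, adjusted p = 0.0420). In H2-3 they were RPS19 (0.56 ± 0.15, adjusted p = 0.0213) and RPL13A (0.54 ± 0.18, adjusted p = 0.0425). Without the block the same values had adjusted p of 0.126, 0.127, 0.131 and 0.135 in H1-2 and 0.0653 and 0.102 in H2-3. Without H1-2 baboon 2 on day 2 the unblocked test called 16 members higher in H1-2 (0.563% of all genes higher, 0.293% lower). Without H2-3 baboon 1 on day 2 it called RPS19 and RPL13A higher and RPL3L lower in H2-3, where 6.57% of all genes were higher and 11.1% lower, so the members' shares lay below those of all genes. The difference between the categories in the change from day 1 to day 2 was below 0 for all 78 members, with a median of -0.44, but no member was called (0% of all genes) and only 3 had an unadjusted p under 0.05 (0.857% of all genes lower).

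RPS19 had the highest fitted change from H0 among the members in H2-3 on day 2 and the second, after RPL7, in H1-2. Its level was 8.77, 8.69, 8.09, 8.93 and 8.64 in H0, 8.15, 8.56, 8.54 and 8.44 on day 1 and 9.01, 8.88, 9.29 and 9.44 on day 2 in H1-2. In H2-3 it was 8.63, 8.35, 8.31, 8.34 and 8.74 on day 1 and 8.84, 8.86, 9.23, 8.99 and 9.25 on day 2. Every day 2 array lay above every day 1 array of its category, and the day 2 arrays overlapped the top of H0 in part. Its second probe gave 0.48 in H1-2 and 0.40 in H2-3 on day 2, beside 0.53 and 0.41 for the brighter one. Neither value passed the test against H0 (adjusted p = 0.357 and 0.103).

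**Figure D4:**
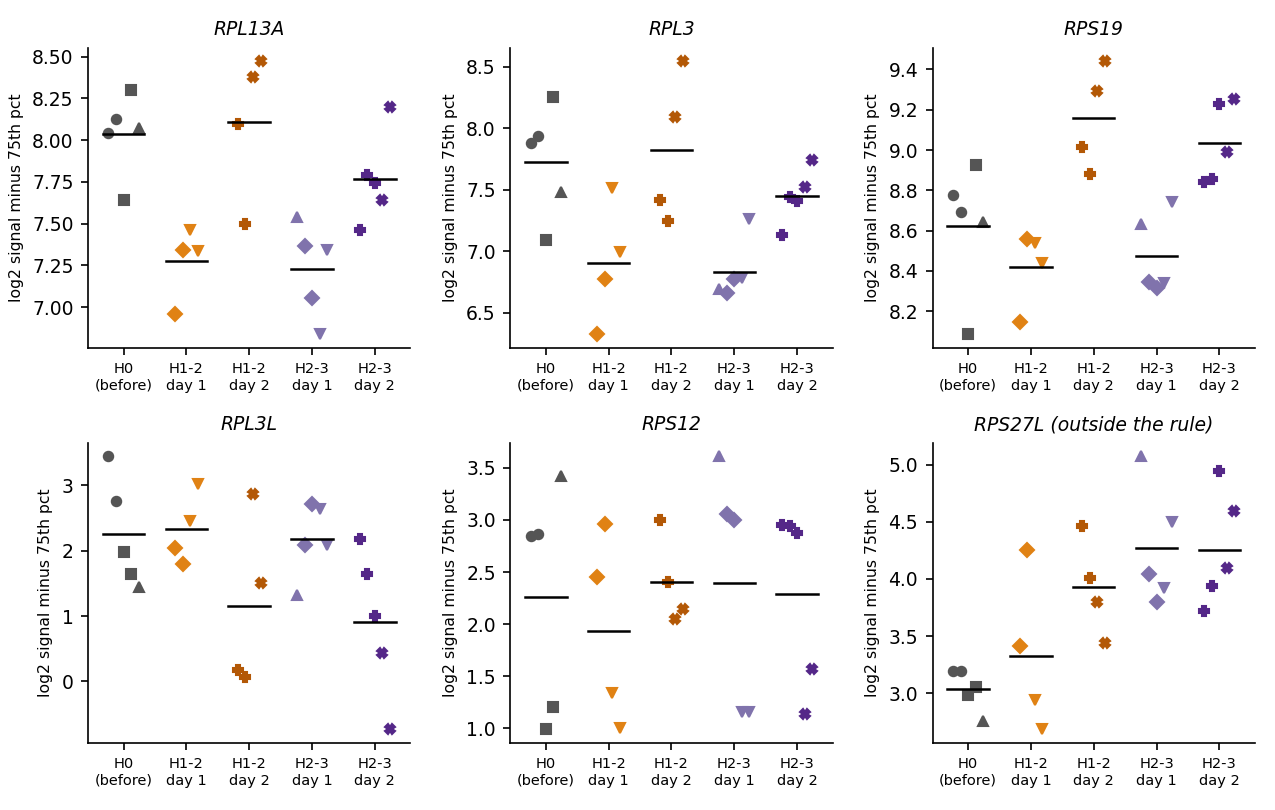
Log2 signal minus the array's 75th percentile for RPL13A, RPL3, RPS19, RPL3L and RPS12 and for RPS27L, which is not a member, 1 symbol per array with the slide as shape as in the plot of array medians and bars at group means. RPL13A and RPL3 are low on day 1, RPS19 is high on day 2, RPS12 is at most 1.34 on every array of slides 2 and 5, and RPS27L lies above all H0 arrays on every H2-3 array.

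RPL3L, a close relative of RPL3 known for its expression in heart and skeletal muscle, had its lowest group means on day 2 instead of day 1. Its level was 3.45, 2.77, 1.98, 1.64 and 1.44 in H0, and on day 1 it ranged from 1.80 to 3.02 in H1-2 and from 1.32 to 2.72 in H2-3. On day 2 it was 0.17, 0.06, 2.88 and 1.5 in H1-2 and 2.17, 1.65, 1.00, 0.43 and -0.73 in H2-3, a wide spread that overlapped H0. The change from H0 on day 2 was -1.11 ± 0.57 in H1-2 and -1.35 ± 0.54 in H2-3 (adjusted p = 0.495 and 0.0849), the lowest among the members in both. Without H2-3 baboon 1 on day 2 it was called in H2-3 (-1.67, adjusted p = 0.0385). In that fit 8.1% of all genes were called lower, against 4.48% with all arrays. Of the 10 arrays left out in turn, only this one gave a called member. RPL10L changed beside RPL10 in each comparison with H0: -0.48 beside -0.40 and 0.01 beside 0.03 in H1-2, and -0.43 beside -0.35 and -0.26 beside -0.21 in H2-3. Given the 33 identical bases, the part that RPL10 transcripts have in the RPL10L signal was not tested.

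RPS12, a small-subunit protein, had the widest spread within groups of all members (SD 0.95, against a median of 0.39 over the 78). Its level lay between 0.99 and 1.34 on all 6 arrays of slides 2 and 5, and between 2.41 and 3.61 on all 13 arrays of slides 1, 3, 4 and 6. Slide 7 ran from 1.14 to 2.15. The irradiated baboons on slide 5 on day 1 are those on slide 7 on day 2, so slide and animal cannot be told apart. Slide accounted for 92.2% of the spread of RPS12 within groups, against a median of 35.3% over the members, and only 15 of the 21130 genes reached that share. The smallest within-group SD among the members was that of RPS28, 0.23.

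The ribosomal protein genes varied together from animal to animal within groups. After subtraction of group means over the 23 arrays, the correlation between 2 members had a median of 0.67 over 3003 pairs, with quartiles of 0.46 and 0.82. Of the 78 members, 63 correlated above 0.7 with the median of the others, and 1.49% of all genes did so with the member median. These values share arrays and scaling, and they describe the list without testing it.

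Relatives outside the rule gave 1 clear change. RPS27L, a paralog of RPS27 and a known target of p53, was 3.19, 3.20, 2.99, 3.05 and 2.75 in H0, 5.07, 4.04, 3.80, 3.92 and 4.5 in H2-3 on day 1 and 3.72, 3.94, 4.94, 4.09 and 4.59 in H2-3 on day 2, with no overlap. It rose by 1.23 ± 0.30 on day 1 (adjusted p = 0.00394) and by 1.22 ± 0.30 on day 2 (adjusted p = 0.0137) in H2-3, and was 0.29 ± 0.32 and 0.89 ± 0.32 in H1-2 (adjusted p = 0.605 and 0.367). The difference between the categories was not called on either day (adjusted p = 0.444 and 0.729). RPS27 itself, with 42 of 54 overlapping probe bases identical, was -0.52 on day 1 and -0.55 on day 2 in H2-3 (adjusted p = 0.154 and 0.139). RPL22L1, RPL7L1, RPL26L1, RPL36AL, GNB2L1, which is the scaffold protein of the small subunit, and FAU, which encodes a fusion with a ubiquitin-like domain, were not called in any comparison with H0. Of these RPL7L1 had the lowest change, -0.53 ± 0.20 in H1-2 on day 1 (adjusted p = 0.0988).

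The lists of other genes of ribosome production and translation differed in how many members were called lower on day 1, where the shares over all genes were 4.42% in H1-2 and 13.5% in H2-3. Of 46 ribosome biogenesis factors, 10 were called lower in H1-2 and 22 in H2-3, with 1 higher in H2-3 and medians of -0.51 and -0.46. BMS1, a GTPase of early small-subunit assembly, changed by -1.08 in H1-2 and -1.47 in H2-3, and UTP20, part of the small-subunit processome, by -1.0 and -1.38; both were still called lower in H2-3 on day 2 (-0.75 and -0.80). Of 13 genes for RNA polymerase I and its factors, 0 were called in H1-2 and 4 lower in H2-3, among them TAF1A at -1.21. TAF1C, another of the 4, was not well above background on any day 1 array of either category, so it has only a bound there.

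Of 8 genes listed for translation elongation 1 was called lower in each category, EEF1B2, the exchange factor of elongation factor 1, at -0.89 and -0.70. Of 20 other 5′ TOP genes 1 was called lower in H1-2 and 2 in H2-3, near the shares of all genes; the prefoldin subunit PFDN5 was -0.98 in H1-2 and the nucleolar NPM1 -1.18 in H2-3. Their list medians, -0.26 and -0.05, were nearer 0 than those of the ribosomal proteins. Of 17 mTOR and TOP regulators 2 were called lower and 1 higher in H2-3, the mTOR partner RPTOR at -0.54 and the translation repressor EIF4EBP1 at 0.74, and 0 in H1-2. Of 72 mitochondrial ribosomal proteins, 12 were called lower in H1-2 and 18 in H2-3, with 1 higher in H2-3 and medians of -0.36 and -0.23; MRPS9 was -0.95 and -1.28, and MRPL4 -0.73 (not called) and -1.19. On day 2 no gene of these lists was called in H1-2.

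**Figure D5:**
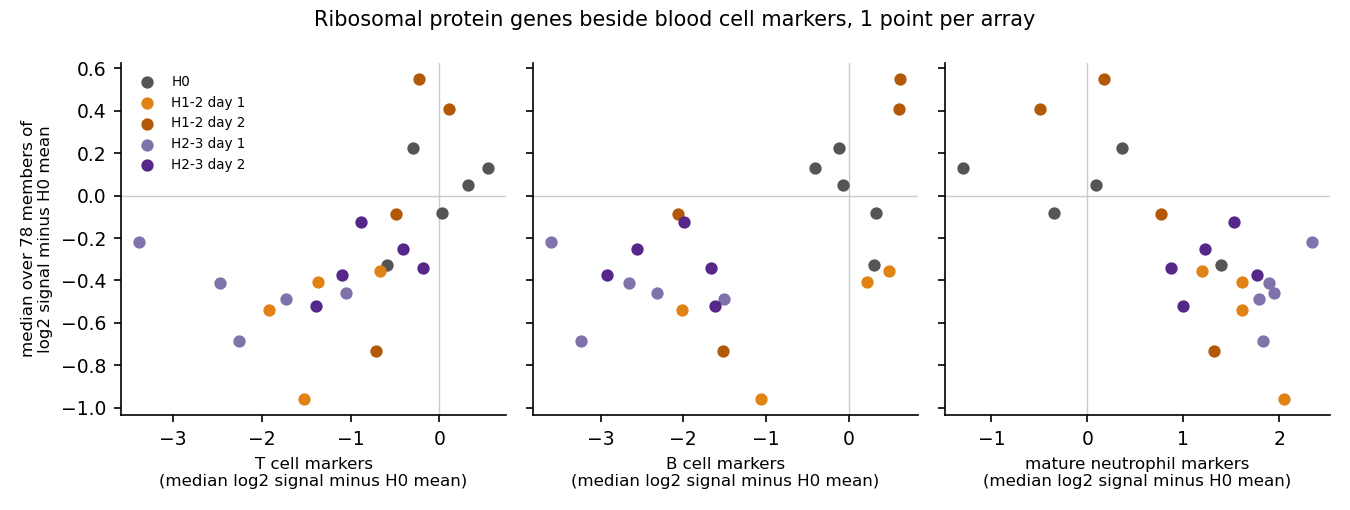
Median over the 78 ribosomal protein genes (vertical axis) against the median over T cell, B cell and mature neutrophil markers (horizontal axes), each as log2 signal minus the H0 mean, 1 point per array coloured by group. Day 1 arrays lie left of 0 for T cell markers and right of 0 for neutrophil markers. The H2-3 day 1 array with the lowest T and B cell markers has the highest ribosomal median of its group. It also has the smallest share of probes well above background of all arrays (41.4%). In H1-2 on day 1 the 2 arrays with the lower T and B cell markers have the lower ribosomal medians.

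Markers of blood cell types moved in the same samples. Over all genes on day 1, 4.42% were called lower and 4.18% higher in H1-2. In H2-3 it was 13.5% and 15%. On day 1, 7 of 16 T cell markers were called lower in H1-2 and 14 in H2-3, and 0 and 13 of 17 B cell markers, with 1 of each list higher in H2-3. The median of the T cell list ran from -0.60 to 0.55 on the H0 arrays, from -1.92 to -0.67 on the H1-2 day 1 arrays and from -3.39 to -1.05 on the H2-3 day 1 arrays. The B cell list spanned -0.40 to 0.33, -2.02 to 0.48 and -3.60 to -1.5. NK and cytotoxic markers (12 and 17 of 19 called lower) and naive lymphocyte markers (1 and 5 of 7, with 1 higher in H2-3) were also called lower. Well above background on every array were 13 of 16 T cell, 8 of 17 B cell, 12 of 19 NK and 4 of 7 naive markers. The lowest medians of these lists may therefore lie near the floor. Mature neutrophil markers were higher, 13 and 18 of 19 called, with medians from -1.30 to 1.39 in H0, 1.19 to 2.05 in H1-2 and 1.79 to 2.34 in H2-3. Of 13 monocyte markers 3 and 9 were called higher, erythroid and reticulocyte markers 0 of 13 in both, and platelet markers 0 and 1 of 14. On day 2 in H2-3, 15 of 17 B cell and 4 of 16 T cell markers were called lower. Called higher were 10 of 19 neutrophil, 8 of 13 monocyte and 7 of 14 platelet markers. The shares over all genes there were 4.48% lower and 10.3% higher. The array with the lowest T and B cell medians, H2-3 baboon 1 on day 1, had the smallest drop of its group in the ribosomal genes (-0.22). It was also the only day 1 array on a slide with an H0 array. The order was opposite in H1-2 on day 1. There the slide 4 arrays averaged -1.72 for T cell markers, -1.54 for B cell markers and -0.75 for the ribosomal genes. The slide 5 arrays averaged -1.02, 0.35 and -0.38. The part of cell composition in the ribosomal changes was not tested.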

How the data were processed

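Each of 23 one-colour human 60-base arrays held 50599 non-control probes. Intensity values come from Agilent Feature Extraction 10.7.3.1, background-subtracted by the authors per the file headers. The log2 value table that the authors deposited has 1 median for all columns and correlates with its arrays at 0.998 or more; no source states how it was normalized. From the processed intensity, log2 was taken, spots of a probe were averaged, each array's 75th percentile was subtracted and the brightest probe per gene was kept if well above background on at least 4 arrays. limma 3.58.1 (R 4.3.3) fitted 5 group means over 21130 genes, with Benjamini-Hochberg adjustment and a threshold of 0.05. The adjusted p above come from it, except where a block, a left-out array or the deposited values are named. The fit was tested on simulated data in which genes were drawn independently, unlike the members, which varied together. For day 1 against H0 it called 34% of true changes of 1 in H1-2 and 32% in H2-3. Of true changes of 2 it called 83% and 81%. Most changes of members were smaller than 1, so a member that was not called may still differ. Members, gene lists and named genes were chosen with earlier results of these data known: named are 18 members with special roles, the members with the smallest p per comparison (5 against H0 or between categories, 3 between days, 3 where none passed), RPL3L, RPL10L and relatives outside the rule, and the 2 genes with the smallest p in each list. Titles number the baboons alike on both days, which pairs the days; deviations of same-numbered arrays correlated between 0.0544 and 0.437. Single values of 2 genes are not reported here. The number of arrays limits precision. Human probes may bind baboon transcripts unequally, which was not tested. Members named outside this rule, among them RPS12, RPS24, RPL17, RPS9, RPS27 and RPS28, were chosen after their values were seen.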

Additional observations from a re-analysis of the deposited data

Results flagged for a closer look

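In 160 groups of arrays (the member median and 31 genes in 5 groups each), 8 had a highest or lowest array far from the rest, which is the number that chance gives at about 1 in 20. RPLP2 was lowest in H2-3 baboon 3 on day 2, at 9.29 with the next array at 9.76. RPS6 was lowest in H0 baboon 5, at 7.47 with the next at 7.85. RPS14 was lowest in H1-2 baboon 1 on day 1, at 6.78 with the next at 7.27. RPS27A was highest in H0 baboon 2, at 6.11 with the next at 5.49. RPL3 was highest in H2-3 baboon 5 on day 1, at 7.26 with the next at 6.79. RPL14 was lowest in H2-3 baboon 4 on day 1, at 7.85 with the next at 8.15. RPL10A and RPL37 were both lowest in H0 baboon 3, at 8.15 with the next at 8.62 and at 6.46 with the next at 7.04. The member median itself had no such array in any group.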

How the results depend on the processing

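The median of the 78 members stayed below 0 on day 1 under all alternatives, but the number of members called did not hold. Percentages in brackets are the share of all genes called in the same direction. In H1-2 on day 1, 6 were called lower (4.42%). There were 16 (5.04%) with normexp background correction, 42 (6.52%) with quantile normalization and 23 (7.43%) with a percentile taken from always-detected probes. The deposited values gave 43 (6.58%), always-detected genes alone 17 (6.11%) and the mean of all probes 11 (4.58%). Array weights gave 28 (5.78%) and an intensity trend 12 (4.87%). There were 2 (1.66%) without a filter, 1 (0.781%) with only the 2 groups compared and 1 (3.51%) with slide as a random block. Slide and scan day as fixed blocks gave 0 (0.0331% and 0.00473%), and the slide block moved the median to -0.20. In H2-3 on day 1, 17 were called lower (13.5%). There were 53 with quantile normalization (16%) and on the deposited values (16%, median -0.78). The always-detected percentile (18.2%) and array weights (15.3%) gave 37 each, and no filter gave 8 (7.14%). As fixed blocks, scan day gave 2 (11.2%) and slide 0 (3.5%), where the slide block gave a median of -0.13. RPL41 turned to 0.35 in H1-2 and 0.33 in H2-3 with slide fixed. The fixed slide block reaches H0 only through 1 H0 and 1 H2-3 day 1 array, both on slide 3. Its H2-3 changes on day 1 are those of this pair alone. In H2-3 on day 2, 0 were called lower (4.48%). Quantile normalization called 6 lower (4.98%), the always-detected percentile 4 (9.61%) and the deposited values 8 (5.08%). No filter called 1 lower (RPL39L, 1.59%) and the mean of all probes 1 (4.86%). Normexp called 1 higher (RPS19, 11%). From day 1 to day 2, array weights called 4 higher and 1 lower in H1-2 (2.5% and 9.01% of all genes) and 3 higher and 1 lower in H2-3 (7.61% and 12.8%). Normexp, quantile normalization and the deposited values called 1 (RPS19) higher in H2-3 (0.97%, 1.84% and 1.86%). The replicate block of the baboon called 4 and 2 higher between days (2.19% and 6.88%) and changed no other count beyond 1.5 times. Across groups the labels do not say that a number marks a shared animal. As a fixed block the replicate numbers gave 0 in H1-2 and 10 in H2-3 on day 1. On day 2 they gave 4 in H2-3. With this block no gene at all was called in H1-2 on day 1. In H2-3 the share of all genes called lower was near the members' share on day 1 and above it on day 2. Same-numbered arrays of H0 and the irradiated groups correlated from -0.331 to 0.508. Within slides 6 and 7 the day 2 difference between categories was 0.053 and -0.78 (chosen after seeing the data).

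Without single arrays, the calls ranged from 0 to 19 and from 4 to 24 on day 1 (0.00947% to 6.89% and 10.9% to 14.3% of all genes). In H2-3 on day 2 they ranged from 0 to 1 (0.88% to 8.1%). Between days they ranged from 0 to 16 higher in H1-2 (0% to 0.563%). In H2-3 they ranged from 0 to 1 lower (0.0142% to 11.1%) and 0 to 2 higher (0.0899% to 6.57%). Other counts stayed at 0. The member medians ranged from -0.63 to -0.42 and -0.54 to -0.41 on day 1, -0.13 to 0.29 and -0.44 to -0.28 on day 2, -0.04 to 0.16 and -0.64 to -0.18 between categories, and 0.43 to 0.88 and 0.08 to 0.20 between days. Slide or scan day as fixed blocks could not be fitted for day 2 against H0 or day 1. No probe was saturated, so that alternative equals the values reported.

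The always-detected percentile moved the median of all genes from 0.14 to -0.05 and the calls over all genes in H2-3 on day 1 from 13.5% lower and 15% higher to 18.2% and 9.71%; no filter on dim probes moved the median to 0.24.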
